A study of Homo sapiens with 2 samples.

Results

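The DEAD box (DDX) and DEAH box (DHX) RNA helicases were examined for C-to-U edit sites in HEK293T cells. Members were the protein-coding genes whose symbol is DDX or DHX followed by a digit, without DDX5. They were found by assigning the isoform models of the long reads to the annotated gene that shared the most exonic sequence with them on that strand. Of 53 annotated genes of this kind, 43 had an isoform model and 38 had at least 1 listed edit site, among 9193 protein-coding genes with a listed site in the whole series. The 38 comprised 25 DDX and 13 DHX genes, of which 36 were listed in the RBFOX2 library, 37 in the enzyme-only library and 35 in both.

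DEAD and DEAH box proteins use ATP to unwind or remodel RNA and RNA-protein complexes, and they act at nearly every step of RNA metabolism. Several drive the rearrangements of the spliceosome, a large group assembles the ribosomal subunits in the nucleolus, and others serve messenger RNA export, translation or decay. RBFOX2 is a splicing regulator that binds UGCAUG in introns and 3'UTRs.

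HEK293T, a human embryonic kidney line that the labels also spell HEK293XT, was fixed in methanol before editing. In both libraries the fixed cells received a fusion of the cytidine deaminase APOBEC1 with a nanobody against rabbit IgG. In the RBFOX2 library a rabbit antibody against RBFOX2 placed the fusion near that protein, whereas the enzyme-only library had the fusion without it. Each condition was 1 library, so there was no replicate and no test. Every comparison below is between 2 libraries rather than between conditions, and the exact Clopper-Pearson 95% intervals cover counting error only.

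The helicase messages were of moderate depth. The reads of a gene, 1 value per gene and library, ranged from 26 to 1348 (median 206) in the RBFOX2 library, and from 21 to 1167 (median 159) in the enzyme-only one. Their sums were 9905 and 9074. The tables list only sites whose converted reads exceeded 0.2% of the reads of the gene, so that a gene with 500 reads or more lists no site with 1 converted read. This limit touched 5 members in each library, namely DDX55, DDX39A, DHX9, DDX3X and DDX39B. Unless stated otherwise, values refer to unshared sites, the positions listed in only one of the libraries.

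The locus carrying the symbol DDX55 needs to be set apart. Its model merged TMED2, a gene of vesicle transport, with the adjacent DDX55, which encodes a helicase of ribosome assembly. All 21 listed sites of the RBFOX2 library and all 15 of the enzyme-only library lay in TMED2 exons, and 0 lay in DDX55 exons. Its 1348 and 1167 reads, the highest of any member, therefore cannot be assigned to DDX55, and the totals it enters are also given without it where it has a large part.

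The following windows show some of the members' UGCAUG hexamers with a listed site within 50 nt, printed because this hexamer is what RBFOX2 binds. They were read from hg38, 5′ to 3′ on the strand of the transcript, as RNA. Capitals mark the hexamer and every listed cytosine inside the window. Hexamers not shown are those of DDX11, DDX49 and DDX54, with enzyme-only sites alone, and of DDX23 and DHX40, with RBFOX2 sites alone. Those of DDX39A and the coding hexamer of DDX1, with sites from both libraries, are not shown either.
DDX18 3'UTR, chr2:117832259-117832288, plus strand: UGCAUGuucaugcuuuuuaauuuuuuuauC
DHX15 3'UTR, chr4:24527573-24527602, minus strand: aUGCAUGaucguuguaauuguugaCauuCc
DDX1 3'UTR, chr2:15631021-15631050, plus strand: aaCucuUGCAUGucaagaaaCauuaguCuu
DHX30 coding sequence, chr3:47846744-47846773, plus strand: guggaugaggUGCAUGagCgggacgugaac
DHX30 coding sequence, chr3:47847884-47847913, plus strand: cacaauCaaugacaucgUGCAUGuggugga
DHX34 coding sequence, chr19:47381235-47381264, plus strand: cccacuguggccUGCAUGcgccccucacgc
DDX52 end of a coding exon, chr17:37632107-37632136, minus strand: caagcCaucccaguuaugCUGCAUGugagu
In the DDX18 window the capital C at the end, 24 nt 3′ of the hexamer, had 2 converted reads in the RBFOX2 library. In the DHX15 window the cytosines 18 and 22 nt 3′ of the hexamer had 3 and 1 converted reads, also in the RBFOX2 library. In the DDX1 window the cytosines 4 nt 5′ and 16 nt 3′ of the hexamer were listed in the RBFOX2 library, and the cytosine 9 nt 3′ of it in the enzyme-only library. In DHX30 the marked cytosine of the first window was from the RBFOX2 library and that of the second, 11 nt 5′ of the hexamer, from the enzyme-only library. In DHX34 the listed cytosine was that of the hexamer itself. The DDX52 hexamer ran across the end of an exon, and both cytosines marked there were from the enzyme-only library.

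The next windows show members' unshared sites with 3 or more converted reads in the RBFOX2 library, printed for the base next to the edited cytosine. The edited cytosine is the single capital in the middle.
DDX3X 3'UTR, chrX:41349335-41349355, plus strand: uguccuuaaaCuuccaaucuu
DDX18 3'UTR, chr2:117831184-117831204, plus strand: uggaccuugaCaguaucuaau
DDX19A 3'UTR, chr16:70373349-70373369, plus strand: gcuuauuagaCaaauauauac
DDX39A coding sequence, chr19:14409379-14409399, minus strand: ggccaccaauCuguuuggccg
DDX39B coding sequence, chr6:31531144-31531164, minus strand: acgacgaauuCuuguggcuac
DHX9 coding sequence, chr1:182883529-182883549, plus strand: cgagccaucuCugcuaaaggc
DHX9 coding sequence, chr1:182884644-182884664, plus strand: gccuguaucaCuggucuccgg
DHX9 coding sequence, chr1:182887115-182887135, plus strand: cccgauacgaCaauggaagcg
The DDX3X site and the DDX39A site had 4 converted reads each and the others had 3. The DHX15 site with 3 is in its window above, and sites of the DDX55 locus were left out. APOBEC1 favours an A or U as the preceding base, which all 8 windows show.

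Over all members, 643 unshared sites stood in the RBFOX2 library against 496 in the enzyme-only library, a ratio of 1.30 (1.15 to 1.46). The reads of the members differed by a ratio of 1.09, so that sites per 1000 gene reads were 64.9 and 54.7. Over the nuclear protein-coding genes the ratio of sites was 1.21 (1.20 to 1.22) at a read ratio of 1.13. Their sites per 1000 gene reads were 48.5 and 45.3. The interval of the members includes that of the protein-coding genes, and no difference from them was detectable. DHX genes had 156 sites against 98, a ratio of 1.59 (1.23 to 2.07), and DDX genes 487 against 398, a ratio of 1.22 (1.07 to 1.40). These intervals overlap, and the difference between DDX and DHX genes was not tested. Without the DDX55 locus the ratio over the members was 1.29 (1.14 to 1.45), and sites per 1000 gene reads were 73.5 and 61.7.

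**Figure D1:**
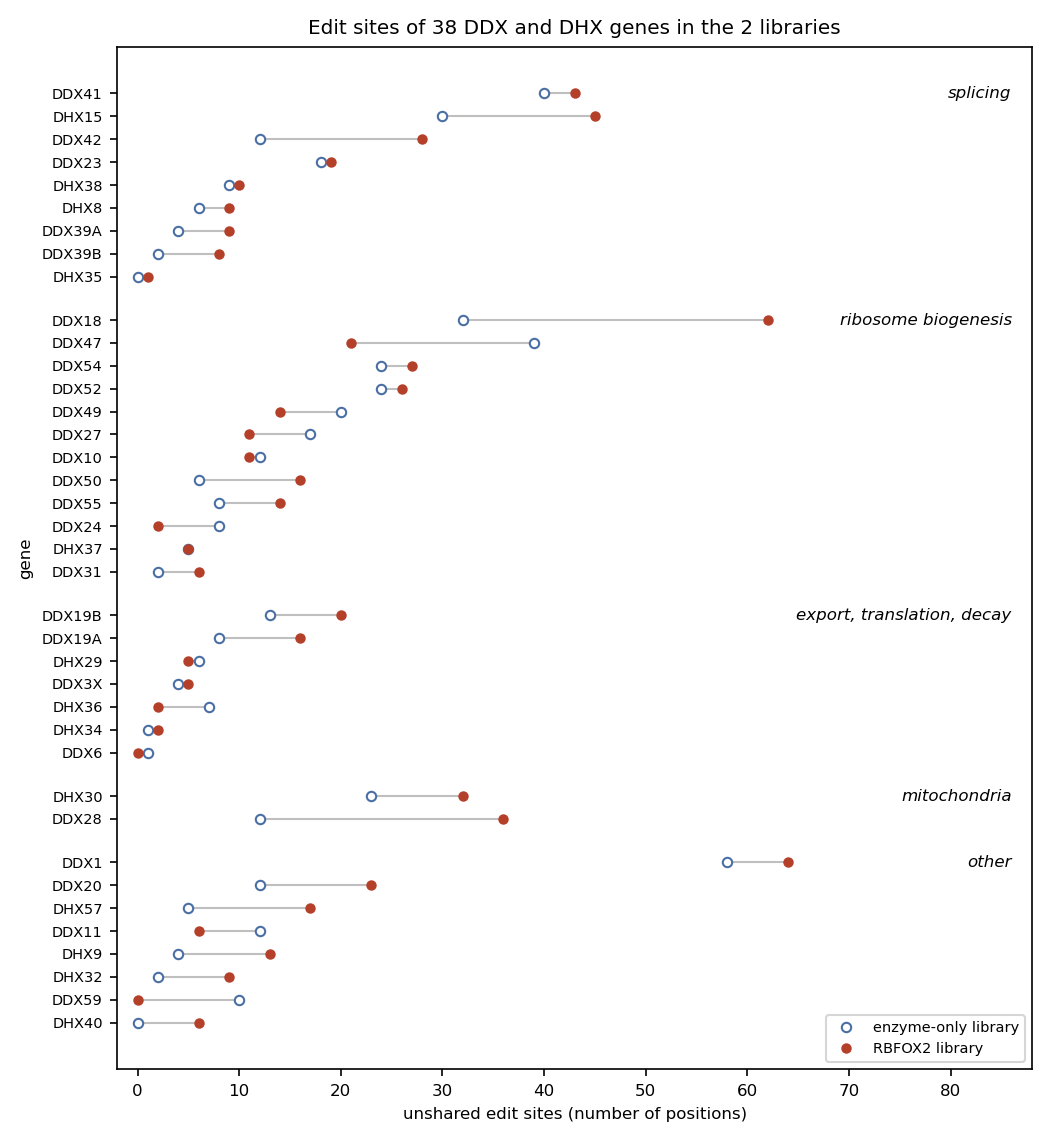
Unshared edit sites (x axis, number of positions) of the 38 listed DDX and DHX genes (y axis, grouped by role), with filled red points for the RBFOX2 library and open blue points for the enzyme-only library. DDX1 had the most sites, 64 and 58, DDX18 had 62 and 32, and DDX47 had 21 and 39.

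Of the 38 listed members, 20 had at least 20 unshared sites over both libraries and were compared singly. The measure was the log2 ratio of the number of RBFOX2 sites to enzyme-only sites, after adding 0.5 to each, minus the log2 ratio of all unshared sites, which numbered 109357 and 91111. Of these 20 members, 3 were more than 2-fold higher in the RBFOX2 library, where 16.7% of all 3570 genes with at least 20 sites were. In the other direction 1 member was more than 2-fold lower, where 14.5% of all such genes were. These members were 15.0% and 5.0% of the 20, no more than the background. The median scaled log2 ratio was 0.26 over the members and 0.08 over all such genes.

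**Figure D2:**
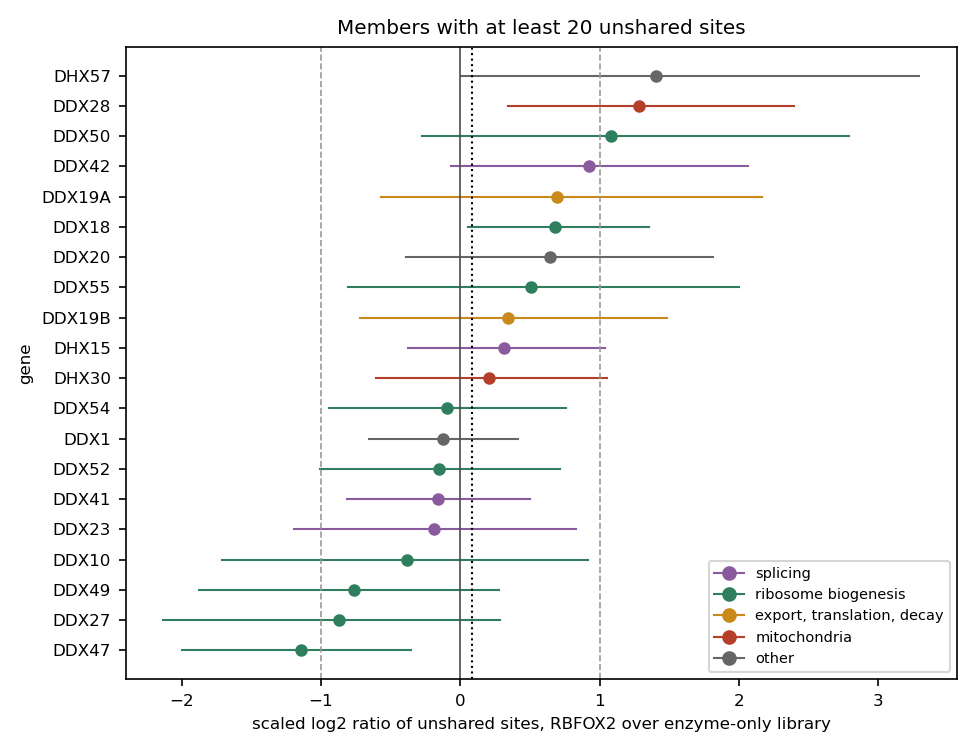
Scaled log2 ratio of unshared sites, RBFOX2 over enzyme-only library (x axis), for the 20 members with at least 20 unshared sites (y axis), with exact 95% counting intervals as bars and colours for role. Dashed lines mark 2-fold in each direction and the dotted line marks the median of all genes, 0.08. DHX57, DDX28 and DDX50 lay above the upper limit and DDX47 below the lower one.

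Splicing helicases had 172 RBFOX2 sites against 121, a ratio of 1.42 (1.12 to 1.81) at a read ratio of 1.13. All 9 listed members had more RBFOX2 sites, as had 55.9% of all 9168 protein-coding genes with an unshared site, and the totals of the libraries differed by a ratio of 1.20. After scaling by these totals, DDX23, DDX41 and DHX38 were below 0, at −0.19, −0.16 and −0.12, and 0 of the 4 members with at least 20 sites were beyond 2-fold. DDX42, which associates with the SF3B complex of the U2 particle, had 28 sites in the RBFOX2 library at 255 reads and 12 in the enzyme-only library at 215 reads. Its scaled log2 ratio was 0.93 (−0.06 to 2.07), an interval that includes 0. Of its RBFOX2 sites 18 lay in the 3'UTR, against 6 in the enzyme-only library. DHX15, which dismantles the spliceosome after the intron lariat is released, had 45 sites at 235 reads and 30 at 238 reads. Sites of DHX15 with at least 2 converted reads numbered 8 in the RBFOX2 library, 4 of them in the 3'UTR, and 1 in the enzyme-only library.

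DDX23, the helicase of the U5 particle that helps U6 replace U1 at the 5′ splice site, had 19 and 18 sites at 188 and 159 reads, for a scaled log2 ratio of −0.19 (−1.19 to 0.83). DDX41, a spliceosome-associated helicase, had 43 and 40 sites at 224 and 206 reads. DDX39A and DDX39B are close paralogs that load export factors onto spliced messages, and reads of one could be placed on the other. DDX39A had 9 sites at 780 reads in the RBFOX2 library against 4 at 647 reads in the enzyme-only one. DDX39B had 8 at 565 reads and 2 at 570 reads. Both needed at least 2 converted reads in either library. The remaining listed splicing members, DHX8, DHX38 and DHX35, had at most 10 sites in a library. DHX35 was listed only in the RBFOX2 library, with 1 site at 55 reads, so its depth in the enzyme-only library is unknown.

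Ribosome biogenesis held the largest number of listed members, 12, with 215 sites against 197, a ratio of 1.09 (0.895 to 1.33) at a read ratio of 1.11. Without the DDX55 locus they had 201 against 189. Among its 9 members with at least 20 sites, scaled log2 ratios ran from −1.14 to 1.08. DDX18, a nucleolar helicase of large-subunit assembly, had 62 sites at 302 reads in the RBFOX2 library against 32 at 278 reads in the enzyme-only one, for a scaled log2 ratio of 0.68 (0.05 to 1.35). DDX18 sites with more than 1 converted read were mostly in the RBFOX2 library, and none had more than 3 converted reads. Sites with at least 2 converted reads numbered 16 in the RBFOX2 library against 2 in the enzyme-only one, and 11 of the 16 lay in the 3'UTR. DDX50, a nucleolar paralog of DDX21, had 16 and 6 sites at 173 and 154 reads, for a scaled log2 ratio of 1.08 (−0.28 to 2.79).

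The lowest ratio of the 20 belonged to DDX47, a helicase of small-subunit processing. It had 21 sites at 152 reads in the RBFOX2 library against 39 at 156 reads in the enzyme-only one, for a scaled log2 ratio of −1.14 (−2.0 to −0.36). Scaling by the reads of each gene in place of the library totals left 0 members more than 2-fold lower. The DDX47 locus overlaps APOLD1, but all of its sites lay in DDX47 exons. DDX27, of large-subunit assembly, had 11 and 17 sites at 231 and 189 reads, for a scaled log2 ratio of −0.87 (−2.13 to 0.29). Of these sites 5 and 0 lay in the 3'UTR. DDX49 had 14 and 20 sites at 274 reads in each library, a scaled log2 ratio of −0.76 (−1.88 to 0.28). DDX10 had 11 and 12 sites, a scaled log2 ratio of −0.38 (−1.71 to 0.92). The intervals of DDX27, DDX49 and DDX10 include 0. DDX52 and DDX54 were near even, with 26 and 24 and with 27 and 24 sites. DDX24, DDX31 and DHX37 had between 2 and 8 sites in each library. The DDX55 locus had 14 and 8 sites, all in TMED2.

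Members of export, translation and decay had few sites, 50 against 40 over 7 genes. DDX19A and DDX19B, paralogs that release export factors from messages at the nuclear pore, had 16 and 8 and had 20 and 13 sites, with scaled log2 ratios of 0.69 (−0.57 to 2.17) and 0.34 (−0.72 to 1.49). Reads may be shared between these paralogs, and their loci also overlap another annotated gene. In DDX19A the 3'UTR held 11 of the RBFOX2 sites and 3 of the enzyme-only sites. DDX3X, which promotes translation of messages with structured leaders, had 5 sites at 609 reads and 4 at 541 reads. The listing limit required at least 2 converted reads in this gene. DHX36, which resolves G-quadruplexes, had 2 and 7 sites, and DHX29, which assists scanning ribosomes, had 5 and 6. DHX34, of nonsense-mediated decay, had 2 and 1. DDX6, a core protein of P-bodies, was listed only in the enzyme-only library, with 1 site at 65 reads. Its depth in the RBFOX2 library is unknown.

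Both mitochondrial members had more RBFOX2 sites, as had 55.9% of all 9168 protein-coding genes with an unshared site. Together DDX28 and DHX30 had 68 against 35, a ratio of 1.94 (1.27 to 3.01) at a read ratio of 1.11. DDX28, which takes part in assembly of the mitochondrial ribosome, had 36 sites at 184 reads in the RBFOX2 library against 12 at 149 reads in the enzyme-only one. Its scaled log2 ratio of 1.28 (0.35 to 2.40) had the highest lower bound among the members compared singly. Of these sites 28 and 11 lay in the coding sequence and 7 and 1 in the 3'UTR, and no UGCAUG lay in its exons. DHX30, of mitochondrial RNA granules, had 32 and 23 sites at 399 and 377 reads. Scaled by the library totals, the log2 ratio of DHX30 was 0.20 (−0.61 to 1.05), and this interval includes 0.

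Among the other members, DDX1, a subunit of the tRNA ligase complex, had the most sites in both libraries, 64 at 473 reads and 58 at 450 reads. Its scaled log2 ratio was −0.12 (−0.66 to 0.42), an interval that includes 0. Per 1000 gene reads it had 135 sites in the RBFOX2 library, fewer than DDX18 with 205 or DDX28 with 196. DHX57, whose function is less defined, had the highest ratio of the 20, with 17 sites at 96 reads and 5 at 98 reads and a scaled log2 ratio of 1.41 (0.0046 to 3.30). DDX20, a subunit of the SMN complex that assembles splicing particles, had 23 and 12 sites at 126 and 111 reads. DHX9, a helicase of double-stranded RNA and R-loops, had 13 and 4 sites at 700 and 647 reads. The listing limit required at least 2 converted reads there. DDX11, a DNA helicase of sister chromatid cohesion with near-identical copies in the genome, had 6 and 12 and is uncertain for that reason. DHX32 had 9 and 2. DDX59 was listed only in the enzyme-only library, with 10 sites at 21 reads, so its depth in the RBFOX2 library is unknown. DHX40 had 6 and 0 unshared sites at 26 and 21 reads.

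DDX17, DDX21, DDX46, DDX51 and DHX16 had an isoform model but no listed site in either library. Reads are given only for genes with a site, so their depth is unknown and nothing follows about their editing.

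Sites converted in several reads separated the libraries more than the number of sites did. Members had 102 unshared sites with at least 2 converted reads in the RBFOX2 library against 37 in the enzyme-only one, a ratio of 2.76 (1.88 to 4.13). They were 15.9% (13.1 to 18.9) of the RBFOX2 sites against 7.46% (5.31 to 10.1) of the enzyme-only ones, beside 14.8% and 9.77% over the nuclear protein-coding genes. In members with at most 500 reads in both libraries, where the listing limit did not act, the shares were 8.94% (6.77 to 11.5) and 3.24% (1.82 to 5.29), beside 7.30% and 4.41% over protein-coding genes of that depth. Without the DDX55 locus, 88 sites stood against 29, which were 14.0% (11.4 to 16.9) and 5.94% (4.02 to 8.42). Without DDX18, the member with most such sites, the shares over all members were 14.8% and 7.54%.

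The 5 members with at least 500 reads in both libraries had 49 sites against 22, a ratio of 2.23 (1.32 to 3.87) at a read ratio of 1.12. Leaving out the DDX55 locus, DDX39A, DDX39B, DHX9 and DDX3X had 35 against 14, a ratio of 2.50 (1.31 to 5.03). Over the 771 nuclear protein-coding genes of that depth the ratio was 1.68 (1.62 to 1.74), which lies inside both intervals.

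The ratio of the libraries was larger in the 3'UTR than in the coding sequence. Members had 191 RBFOX2 and 100 enzyme-only sites there, a ratio of 1.91 (1.49 to 2.46), and 422 and 373 in the coding sequence, a ratio of 1.13 (0.982 to 1.30). These intervals do not overlap. Over nuclear protein-coding genes the corresponding ratios were 1.41 (1.39 to 1.43) and 1.10 (1.09 to 1.12). The 3'UTR held 29.7% (26.2 to 33.4) of the RBFOX2 sites of the members and 20.2% (16.7 to 24) of the enzyme-only sites, beside 42.3% and 36.1% over protein-coding genes. Many member positions are coding in one annotated transcript and 3'UTR in another. When such positions were counted as 3'UTR the shares were 61.9% (58.0 to 65.7) and 55.8% (51.4 to 60.3), and these intervals overlap. By gene, DDX18 contributed 32 and 18 of the 3'UTR sites, DDX42 18 and 6, and DDX52 12 and 2. DDX19A had 11 and 3, and DHX15 10 and 4. Other members had fewer in the RBFOX2 library, among them DDX47 with 6 and 9, DDX11 with 5 and 8, and DDX23 with 4 and 7.

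**Figure D3:**
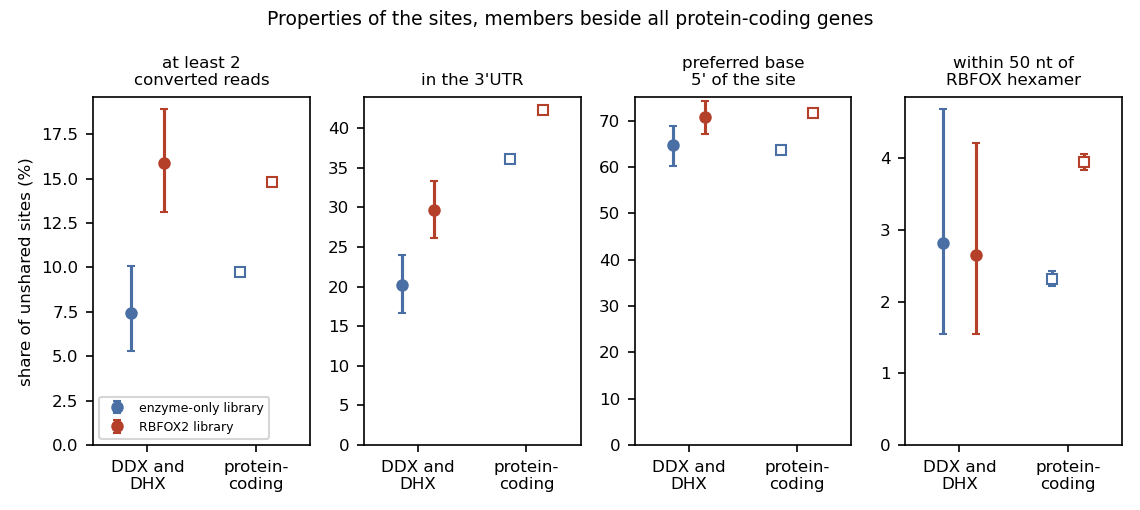
Share of unshared sites (y axes, %) with at least 2 converted reads, in the 3'UTR, with A or U directly 5′ of the cytosine (the base APOBEC1 prefers) and within 50 nt of the RBFOX hexamer UGCAUG, for the members (filled circles) and all nuclear protein-coding genes (open squares), red for RBFOX2 and blue for enzyme-only, with exact 95% counting intervals. Members had 15.9% against 7.46% in the first panel, and 2.65% against 2.82% in the last.

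Near UGCAUG no difference between the libraries was detectable in the members. Within 50 nt of the hexamer on the same strand lay 17 of 642 exonic RBFOX2 sites, 2.65% (1.55 to 4.21), and 14 of 496 enzyme-only sites, 2.82% (1.55 to 4.69). Of all exonic cytosines of these genes, weighted by their sites, 2.73% and 3.12% lay as close. Over nuclear protein-coding genes the shares were 3.94% (3.83 to 4.06) and 2.32% (2.22 to 2.42), against 2.59% and 2.44% of cytosines. DDX1 alone held 6 of the 14 enzyme-only sites, and without it the order turned, with 2.25% (1.20 to 3.82) against 1.83% (0.792 to 3.57). In DHX genes 7 of 156 RBFOX2 sites, 4.49% (1.82 to 9.03), and 1 of 98 enzyme-only sites, 1.02% (0.0258 to 5.55), lay as close. In DDX genes they were 2.06% (0.991 to 3.75) and 3.27% (1.75 to 5.52), and within each family the intervals overlap. The interval of the members in the RBFOX2 library includes the protein-coding share, so a lower share was not detectable at this number of sites. UGCAUG occurred 48 times in the exons of 22 listed members, 20 times in coding sequence and 9 times in a 3'UTR, and 16 members had none. Of the 48, 9 had an RBFOX2 site within 50 nt, 8 an enzyme-only site and 4 both, while 35 had neither. The DDX55 locus added 1 of the 48, which had no site.

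The few sites near a hexamer were unevenly spread over genes. DDX18 had its single exonic hexamer in the 3'UTR, at position 117832259 to 117832264 of chromosome 2. RBFOX2 sites lay 24, 39 and 46 nt 3′ of it with 2, 1 and 2 converted reads of 302 gene reads, and no enzyme-only site was listed there. The 3'UTR hexamer of DHX15 likewise had 2 RBFOX2 sites and 0 enzyme-only sites, both within 22 nt on its 3′ side. By contrast, the 3'UTR hexamer of DDX1 had 3 RBFOX2 sites and 5 enzyme-only sites, each with 1 converted read. DHX30 had 3 RBFOX2 sites and 1 enzyme-only site near the pair of coding hexamers shown above. DDX39A had 1 RBFOX2 site and 2 enzyme-only sites near its coding hexamers, each with 2 converted reads. The coding hexamer of DDX1 had 1 site from each library. DDX52 had 1 RBFOX2 site and 2 enzyme-only sites. DDX23, DHX34 and DHX40 had 1 RBFOX2 site each, and DDX11, DDX49 and DDX54 had 1 enzyme-only site each. The hexamer near the DHX40 site was intronic. Counting only hexamers that lay within exons gave 2.34% and 2.42% in place of 2.65% and 2.82%.

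**Figure D4:**
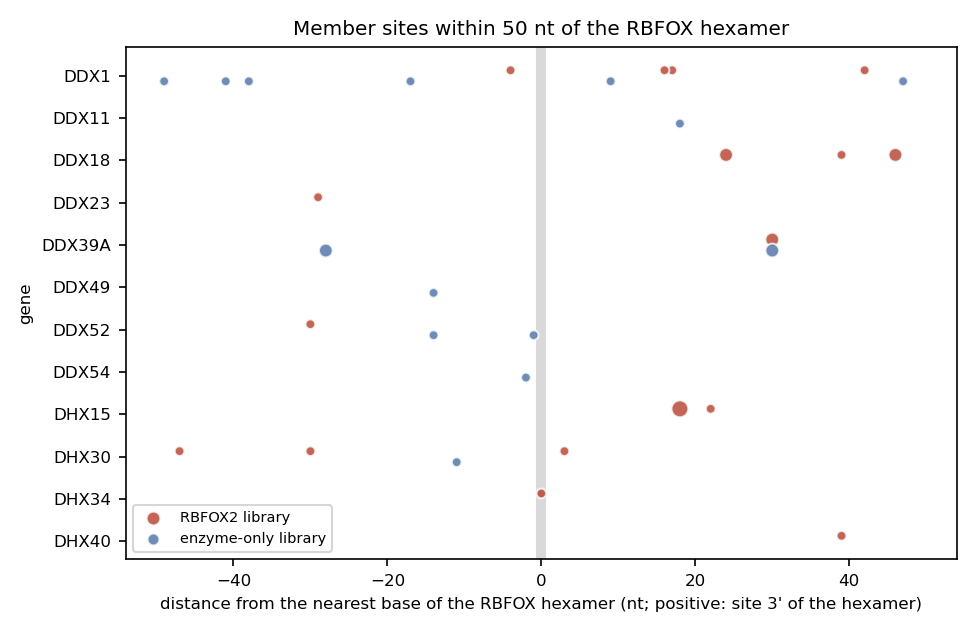
Distance in nt of each unshared member site from the nearest base of a UGCAUG hexamer (x axis, positive on the 3′ side, grey band inside the hexamer) by gene (y axis), red for RBFOX2 and blue for enzyme-only, with point area proportional to converted reads. The 17 RBFOX2 and 14 enzyme-only sites fall on both sides, and the largest point is the DHX15 site 18 nt 3′ of its hexamer, with 3 converted reads.

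Members without a hexamer in their exons had 270 RBFOX2 and 186 enzyme-only sites, a ratio of 1.45 (1.20 to 1.76). Those with one had 373 and 310, a ratio of 1.20 (1.03 to 1.40), or 359 and 302 without the DDX55 locus. The difference between these groups was not tested, and their intervals overlap.

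The base 5′ of the edited cytosine was A or U at 70.8% (67.1 to 74.3) of the members' RBFOX2 sites and 64.7% (60.3 to 68.9) of their enzyme-only sites, against 47.4% and 47.0% of the exonic cytosines of the same genes. Among sites with at least 2 converted reads the shares were 90.2% (82.7 to 95.2) and 73.0% (55.9 to 86.2). Over nuclear protein-coding genes the shares at all sites were 71.6% and 63.7%.

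The sites in reading frames were read as codon changes. In the RBFOX2 library 47.5% of 417 coding sites of members were synonymous, 46.5% missense and 6.0% (3.92 to 8.72) would create a stop codon. In the enzyme-only library the shares of 363 sites were 45.7%, 48.2% and 6.06% (3.84 to 9.03). Of all coding cytosines of these genes, 8.81% and 8.92% would create a stop when converted. The classes differed little between the libraries, with overlapping intervals for each class. DDX1 had 5 stop-creating sites in each library, and DHX15 had 4 in the RBFOX2 and 3 in the enzyme-only library, each with 1 converted read.

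Per isoform model, editing was expressed as editsC, here the percentage of exonic cytosines that were unshared sites. Cytosines listed in both libraries were not counted as edited. Isoforms of a gene share exons and sites and are not replicates, and reads were not given per isoform. Over the merged exons of DDX18, editsC was 8.59% in the RBFOX2 library against 4.43% in the enzyme-only one, and it was higher in the RBFOX2 library in all 43 isoforms, with lowest values of 7.33% and 2.64%. The same held for all 4 isoforms of DDX28, all 21 of DDX42 and all 19 of DHX15. EditsC was not scaled by the totals of the libraries. The scaled log2 ratio of DHX15 was 0.31 (−0.38 to 1.04), and the intervals of DHX15 and DDX42 include 0. In DDX47 editsC was lower in the RBFOX2 library in all 15 isoforms, from 2.61% to 8.33% against 3.77% to 11.8%. DDX1 isoforms were mixed, with 17 of 29 higher and 6 lower, and DDX52 isoforms were split evenly, with 16 higher and 16 lower.

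**Figure D5:**
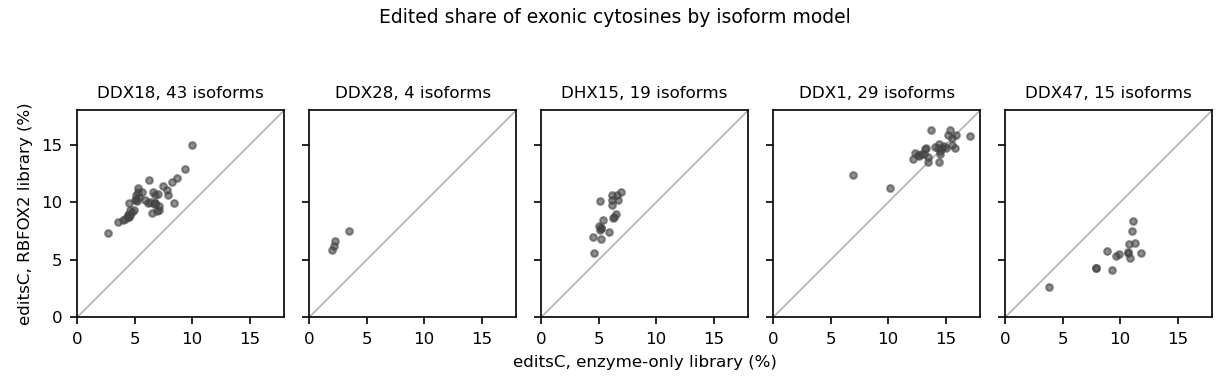
EditsC in the enzyme-only library (x axis) and the RBFOX2 library (y axis), 1 point per isoform model, with the line of equality in grey. EditsC is the percentage of exonic cytosines of the isoform model that were unshared sites. All 43 DDX18, 4 DDX28 and 19 DHX15 isoforms lie above the line, all 15 DDX47 isoforms lie below it, and DDX1 isoforms lie on both sides.

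Positions listed in both libraries were counted separately. There were 78 in the members, 10.8% (8.65 to 13.3) of their RBFOX2 sites against 13.6% (10.9 to 16.7) of their enzyme-only ones, beside 10.5% and 12.4% over protein-coding genes. Converted reads were higher in the RBFOX2 library at 17 of these positions, higher in the enzyme-only library at 10 and equal at 51. DDX1 held 20 of them and DHX15 held 10. A position of the DHX40 coding sequence, 59579493 on chromosome 17, stood apart, with 12 converted reads of 26 gene reads (46.2%) and 11 of 21 (52.4%). Whether it is a genomic difference of the cell line was not tested.

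RNA helicases with other symbols were set beside the members, among them the DEAD box genes EIF4A1, EIF4A2 and EIF4A3, which the rule on symbols left out. Of 20 such genes, 16 were listed and 10 had at least 20 unshared sites. Of the 10, 2 were more than 2-fold higher in the RBFOX2 library and 0 lower, beside 16.7% and 14.5% over all 3570 genes. The median scaled log2 ratio of the 10 was 0.06. UPF1, the central helicase of nonsense-mediated decay, had 27 and 3 sites at 221 and 163 reads. Its scaled log2 ratio was 2.71 (1.21 to 5.27). MTREX, the helicase of the nuclear exosome, had 24 and 7 sites at 168 and 167 reads. For MTREX the log2 ratio after scaling by the library totals was 1.44 (0.26 to 2.97). DDX5, which was kept out of the members, had 17 and 4 sites at 1057 and 1061 reads. Its scaled log2 ratio was 1.70 (0.21 to 3.85).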

How the data were processed

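Edit sites from long-read cDNA of 2 HEK293T libraries, grouped by their descriptions in the labels, were analysed. In the study's methods, consensus reads were aligned to hg38 with pbmm2 and C-to-U edits were called with the authors' own code. Those methods name another library kit than the labels, and the version that made these tables is not given in the sources used here. For each site the authors deposited counts of converted reads and of all reads of its gene, the latter fixed for a gene in a library. The edit fraction that the authors deposited is the first count divided by the second, so it understates editing of positions found in few isoforms. A confidence score that the authors deposited was not used, and the isoform models hold no expression values.

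Loci were assigned to GENCODE 44 genes (bedtools 2.31.1), and a position annotated in several ways was taken as coding sequence first, then 3'UTR and 5'UTR. All listed positions were checked to be cytosines of hg38. Positions common to both libraries were removed. The study removed only edits seen in all its replicates and samples, so that removal from 2 single libraries takes out more positions. Its removal of dbSNP variants was not repeated. Comparison genes exclude the mitochondrial chromosome, except in the counts of genes with at least 20 sites. Intervals are Clopper-Pearson at 95% (scipy 1.17.1). Those of log2 ratios come from the RBFOX2 share of the sites of both libraries. The ratio calculation and motif distances were tested on simulated data.

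Named members were the 5 highest and 5 lowest log2 ratios, the 5 with most RBFOX2 sites near UGCAUG (ties kept), the 5 with most reads and those with a site of at least 5 converted reads. Members named beside these were added after their values were seen. The members, role groups, lists and alternatives were chosen with earlier results of these data known.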

Additional observations from a re-analysis of the deposited data

How the results depend on the processing

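No paired analysis was possible because each group held a single library, numbered differently in the labels. Of 95 recomputed values over the members, 73 stayed within the main interval, or within 1.5 times the main count, and 22 moved. No single value changed sign, but the order of the libraries near UGCAUG, 2.65% (RBFOX2) against 2.82%, turned under several settings. With only sites of at least 2 converted reads, the ratio of sites moved from 1.30 to 2.76, the share after A or U to 90.2% (RBFOX2) and 73.0% (enzyme-only), the 3'UTR share to 35.3% and 10.8%, and the enzyme-only share near UGCAUG to 5.41%, which is 2 of 37 sites. Taking 3'UTR before coding sequence gave 61.9% and 55.8%. Near UGCAUG, windows of 200 nt gave 9.97% and 8.67%, the shorter motif GCAUG gave 10.1% and 9.07%, and a window of 20 nt gave 0.935% and 1.61%. In members of at most 500 reads the share with at least 2 converted reads was 8.94% and 3.24%. At a minimum of 10 sites, 6 of 31 members were more than 2-fold higher and 4 were lower. The share over all genes was computed only at a minimum of 20 sites. Members beyond 2-fold numbered 0 and 0 with at least 2 converted reads, where 1 member was left. With a minimum of 50 sites 0 of 8 members were higher. With overlapping loci left out, or with scaling by gene reads, 0 were lower. Leaving out DDX55, DDX1 or DDX18, and requiring the hexamer within exons, were chosen after seeing the data and left every value within its main interval. Without DDX1, however, the shares near UGCAUG were 2.25% and 1.83%, the latter lower by over 1.5 times. The depth limits all counts per gene, since most sites rest on 1 converted read. The causes of these shifts were not tested.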
